A study of Mus musculus with 2 samples.

Results

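Mir342, Mir326, Mir346, Mir218-1 and Mir218-2 are 5 mouse microRNA (miRNA) genes that lie inside protein-coding genes of neuronal signalling: Evl, Arrb1, Grid1, Slit2 and Slit3. They were chosen by name, as the rows of the count tables whose Ensembl identifier carries one of these 5 symbols in GENCODE M21, and are 5 of 2202 annotated miRNA genes. The tissue was left cerebral cortex of B6CASTF1/J males aged 2 months, which have a C57BL/6J and a CAST/EiJ parent, and RNA of less than 30 nucleotides was sequenced. The labels name no treatment, transgene or mutation. The only group had 2 libraries, library 1 from animal number 3 and library 2 from animal number 4. The labels give both the same donor identifier, so the spread between them may be technical, and no condition was compared.

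A miRNA inside an intron is usually cut from the transcript of its host gene. The hairpin is trimmed to a short duplex, and one or both arms (5p and 3p) are loaded into Argonaute, where the seed, bases 2 to 8 of the mature miRNA, pairs with target mRNAs. The hosts work at different points of neuronal signalling. Slit2 and Slit3 are secreted ligands that guide axons through Robo receptors. Grid1 encodes the delta-1 subunit of the ionotropic glutamate receptor family, found at synapses. Arrb1 encodes beta-arrestin 1, which binds activated G-protein-coupled receptors, turns off their G-protein signal and serves as a scaffold. Evl is an Ena/VASP protein that promotes the growth of actin filaments in growth cones and other moving cell edges. miR-218 is best known in the mouse from motor neurons, and miR-342 is also abundant in white blood cells.

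The mature sequences are shown because they decide which reads can be told apart and which target sites the miRNAs share. They are from RefSeq (GRCm38.p6), which held all 5 genes, and the capitals mark the seed.
miR-342-5p: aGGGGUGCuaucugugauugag
miR-342-3p: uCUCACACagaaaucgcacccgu
miR-326-5p: gGGGGCAGggccuuugugaaggcg
miR-326-3p: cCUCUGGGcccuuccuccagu
miR-346-5p: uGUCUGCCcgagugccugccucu
miR-346-3p: aGGCAGGGgcugggccugcagc
miR-218-5p (from both Mir218 genes): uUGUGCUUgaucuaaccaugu
miR-218-1-3p: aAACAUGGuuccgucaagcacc
miR-218-2-3p: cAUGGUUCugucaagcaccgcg

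No seed was shared between miR-342, miR-326, miR-346 and miR-218. Within miR-218 the 5p arm was identical in both genes. The 3p arms aligned over 19 bases with 18 identical and 1 substitution, C12U, counted from the 5′ end of miR-218-1-3p. Their 5′ ends are offset by 3 bases, so their seeds differ, AACAUGG in miR-218-1-3p and AUGGUUC in miR-218-2-3p.

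The hairpins of Mir218 show why their counts need care. The capitals below mark the longest run of bases common to both.
Mir218-1 (mm10 chr5:48223942-48224051, plus strand): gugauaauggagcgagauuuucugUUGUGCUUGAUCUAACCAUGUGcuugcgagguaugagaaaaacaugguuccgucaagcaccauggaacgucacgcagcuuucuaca
Mir218-2 (mm10 chr11:35616816-35616925, plus strand): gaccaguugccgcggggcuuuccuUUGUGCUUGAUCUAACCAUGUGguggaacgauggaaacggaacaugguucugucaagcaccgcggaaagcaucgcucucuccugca

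This run is 22 bases long and holds the whole 21-base miR-218-5p. A read that lies within it matches both genes. In count files of this layout a read that maps to several places enters a tally of its own and no gene count. The counts of Mir218-1 and Mir218-2 therefore leave out such reads and do not give the level of miR-218-5p. The 3p arms share at most 10 bases in a row with the other gene, so a whole 3p read distinguishes the genes. The other 3 genes had no such run in common with another annotated miRNA hairpin. Their longest runs in common with any of these hairpins, on the same strand, were 12 bases for Mir342, 13 for Mir326 and 14 for Mir346. The rest of the genome was not searched, so whether their reads also match elsewhere was not tested.

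The 2 libraries held 3827158 and 4553291 reads on the sense strand of miRNA genes, and levels are counts per 1000000 of these reads (CPM). A mature miRNA gives 1 read whatever the length of its hairpin, so CPM is not divided by length. Intervals cover counting error only, because copies of a molecule made by PCR are not marked and are counted as separate reads. A gene is called detected where each library had at least 10 reads for it, which 406 of the 2202 genes (18.4%) and all 5 of the genes described here had. The tissue label was set against 12 miRNA genes of neurons, of which 9 were detected and none was at 0, with a summed level of 77660 CPM in library 1 and 52536 CPM in library 2. The markers of other cells were present as well, with none at 0. Their summed levels, library 1 first, were 14154 and 9725 CPM for astrocytes (2 of 2 genes detected), 4981 and 3468 CPM for oligodendrocytes (3 of 3), and 14355 and 18575 CPM for vessels (3 of 3). They were 718 and 722 CPM for choroid plexus (4 of 4), 2164 and 1751 CPM for microglia and leukocytes (4 of 5), and 134 and 1549 CPM for red blood cells (3 of 3). The lists hold several copies of some miRNAs, such as Mir124a, Mir9, Mir128 and Mir138 for neurons. Under the layout described above, reads that match several copies enter no gene count. The sums leave out such reads and are not comparable between lists.

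Mir342 was the most abundant of the 5 genes. It had 15125 reads in library 1 and 14920 in library 2, or 3952 CPM (95% exact interval 3889 to 4015) and 3277 CPM (3224 to 3330). Its mean of 3614 ± 477 CPM (SD, n = 2) ranked 48 among the 406 detected genes, 44 in library 1 and 51 in library 2. It was 4.96 to 97.0 times as high as each of the remaining 4 genes, over both libraries. Mir342 supplied 71.3% of the counted reads of the 5 genes in library 1 (95% exact interval 70.6 to 71.9%). In library 2 it supplied 69.9% (69.2 to 70.5%). Reads that match both Mir218 genes are not among the counted reads. Mir342 alone had a higher level than the 5 microglia and leukocyte genes together, in both libraries. Levels of different miRNAs do not give the cells they come from, and miR-342 is also a white blood cell miRNA. In a whole tissue, fewer cells of a type and less RNA per cell cannot be told apart, and the part that immune cells play in the level of Mir342 was not tested.

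Mir346 and Mir326 shared the middle of the range. Mir346, from the glutamate receptor gene Grid1, had 2889 reads in library 1 and 2823 in library 2, or 755 and 620 CPM (mean 687 ± 95.4, SD, n = 2; rank 114). Mir326, from the beta-arrestin gene Arrb1, had 2476 reads in library 1 and 3011 in library 2, or 647 and 661 CPM (mean 654 ± 10.1, SD, n = 2; rank 116). Their order turned round between the libraries, with Mir346 at 1.17 times Mir326 in library 1 and at 0.938 times in library 2. The order of these neighbours was therefore not resolved by the 2 libraries. Mir326 moved least of the 5 genes, with a coefficient of variation of 1.55%, against a median of 17.3% over the 406 detected genes.

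The Mir218 genes were the lowest of the 5. Mir218-2, in Slit3, had 582 reads in library 1 and 443 in library 2, or 152 and 97.3 CPM (mean 125 ± 38.7, SD, n = 2; rank 191). Mir218-1, in Slit2, had 156 reads in library 1 and 161 in library 2, or 40.8 and 35.4 CPM (mean 38.1 ± 3.82, SD, n = 2; rank 245). Mir218-2 lay above Mir218-1 in both libraries, by 3.73 times in library 1 and 2.75 times in library 2, and the ranges of the genes did not overlap. Mir218-1 gave 21.1% of the counted Mir218 reads in library 1 (95% exact interval 18.2 to 24.3%), against 26.7% in library 2 (23.2 to 30.4%). These intervals overlap. The ratio describes reads that could be placed at a single gene, not miR-218-5p as a whole. Levels of Mir218 relative to Mir342, Mir346 or Mir326 are affected by the same limit.

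**Figure D1:**
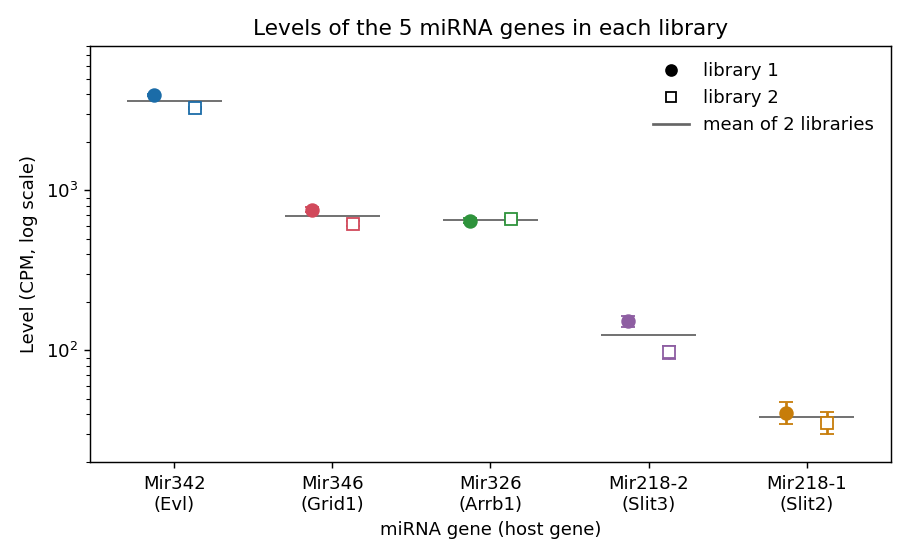
Level of each miRNA gene in counts per 1000000 sense-strand miRNA reads (CPM, log axis), with the host gene in brackets. Filled circles are library 1, open squares library 2, bars the 95% exact interval from counting error and grey lines the mean of the 2 libraries; Mir342 stands at 3277 to 3952 CPM, Mir346 and Mir326 lie at 620 to 755 CPM and change places, and Mir218-2 stays above Mir218-1.

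The 5 genes together made up 0.555% of sense-strand miRNA reads in library 1 (95% exact interval 0.547 to 0.562%), against 0.469% in library 2 (0.463 to 0.475%), a mean of 0.512% ± 0.0605 (SD, n = 2). No antisense read was counted at any of them, and their counts were the same in the column that ignores strand. No other annotated gene lies on the opposite strand of the 5 hairpins, so their counts do not carry that source of confusion.

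All 5 hairpins were intronic in every annotated transcript of the host that spans them, and lay on the strand of the host (mm10, GENCODE M21). Mir342 (ENSMUSG00000065436.1; chr12:108658620-108658718, plus strand) was in intron 3 of 13 of the Evl transcript used here, 104 kb from its start. Mir326 (ENSMUSG00000065571.1, chr7:99552269-99552363, plus strand) was in intron 1 of 14 of Arrb1, 16.6 kb from the start. In kb, Mir326 is the nearest of the 5 to the start of its host transcript. Mir346 (ENSMUSG00000065481.1; chr14:34894609-34894706, plus strand) was in intron 2 of 15 of Grid1, an intron of 123044 bases in a transcript of 763272 bases. Mir218-1 (ENSMUSG00000065603.1) was in intron 14 of 35 of Slit2 and Mir218-2 (ENSMUSG00000065583.1) in intron 14 of 35 of Slit3. The Mir218 genes thus occupied the intron of the same number in these paralogous hosts, which have the same number of introns in the transcripts used. Those introns are 4572 bases long in Slit2 and 9571 bases in Slit3, and the hairpins lie 241 kb and 496 kb from the transcript starts. Mir346 lay 74.5 kb from the start of its transcript. As a share of the transcript, Mir346 lay nearest to the start, at 9.76%, followed by Mir326 at 24.5%. Mir218-1 lay at 74.2%, Mir342 at 77.7% and Mir218-2 at 84.4%.

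**Figure D2:**
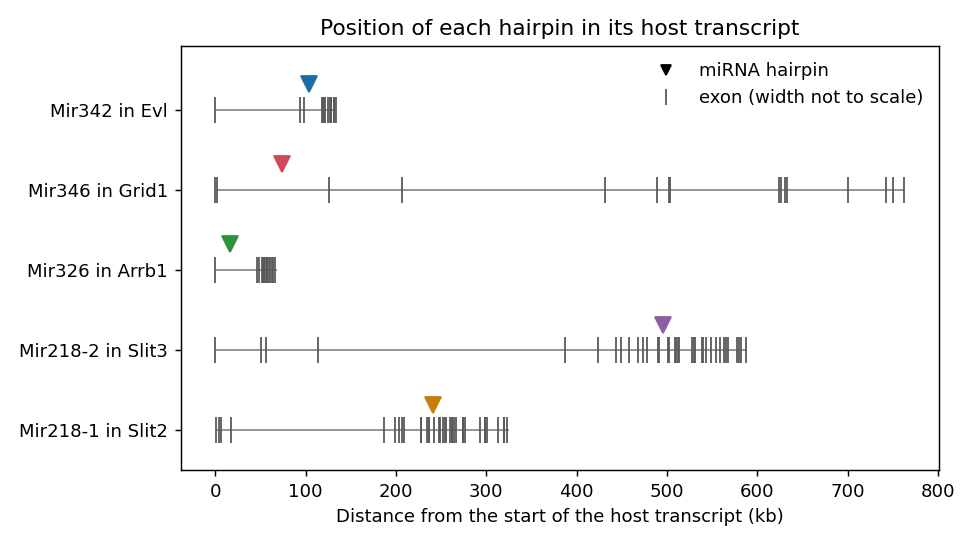
Position of each hairpin (triangle) along 1 protein-coding transcript of its host gene, as distance from the transcript start in kb. Vertical ticks are exons, drawn at their centre with no width; the Mir218 hairpins lie in intron 14 of Slit3 and of Slit2, and Mir326 lies in the first intron of Arrb1.

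No other miRNA gene lay within 50 kb of any of the 5. The nearest to Mir342 was Gm23872 at 63130 bases, which had no read in either library, and the nearest to Mir218-2 was Mir103-1 at 165471 bases. The other 3 were more than 1000000 bases from their nearest miRNA gene. None of the 5 thus belonged to an annotated cluster of miRNA genes at that distance.

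Their hairpins differed in composition. Mir346 had the highest GC content at 65.3%, followed by Mir326 at 60.0%, Mir218-2 at 54.5%, Mir342 at 51.5% and Mir218-1 at 45.5%, against a median of 52.3% over the detected genes. The computed folding energy per base was lowest, meaning most stable, for Mir326 (-0.535 kcal/mol) and Mir346 (-0.507 kcal/mol). It was -0.473 kcal/mol for Mir342, -0.385 kcal/mol for Mir218-2 and -0.333 kcal/mol for Mir218-1, and the median of the detected genes was -0.434 kcal/mol. Annotated hairpins include flanks of different length, which enter both measures. The bias of small RNA ligation and amplification towards some sequences can alter levels between genes, and its part in the order of the 5 genes was not tested.

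Between the libraries, 3 of the 5 genes were higher in library 1 beyond counting error, by an exact binomial test (two-sided; Benjamini-Hochberg adjusted over the 508 genes with 10 or more reads in total). By that test 48.4% of the 508 genes differed, with 25.2% higher in library 1 and 23.2% in library 2, so 3 of 5 is read as no result particular to these genes. The share rises with the level. Of 72 tested genes between 1000 and 10000 CPM, as Mir342 is, 90.3% differed. Of 107 genes between 100 and 1000 CPM, the range of Mir346, Mir326 and Mir218-2, 79.4% differed, and of 309 genes under 100 CPM, the range of Mir218-1, 24.6% differed.

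Mir218-2 had the widest difference of the 5. Library 1 over library 2 was 1.56-fold (log2 ratio 0.64, 95% exact interval 0.46 to 0.83; adjusted p = 4.63e-12 by the exact binomial test). Mir346 was 1.22-fold higher in library 1 (log2 ratio 0.28, 0.21 to 0.36; adjusted p = 4.72e-13 by the exact binomial test). Mir342 was 1.21-fold higher in library 1 (log2 ratio 0.27, 0.24 to 0.30; adjusted p = 2.82e-58 by the exact binomial test). The small p of Mir342 comes with 30045 reads and goes with a modest ratio. Mir218-1 had a ratio of 1.15 (log2 ratio 0.21, -0.12 to 0.53; adjusted p = 0.328 by the exact binomial test), and its 317 reads leave a range that includes both no difference and the ratio of Mir346. Mir326 had a ratio of 0.978 (log2 ratio -0.03, -0.11 to 0.05; adjusted p = 0.551 by the exact binomial test), so the interval reaches no further than -0.11 on the log2 scale. With all reads of a library as its total, Mir326 was called higher in library 2 (log2 ratio -0.0915; adjusted p = 0.0409 by the exact binomial test), and its adjusted p was 0.46 to 1 under the other alternatives. The median absolute log2 ratio was 0.27 over the 5 genes and 0.41 over the 508 tested genes.

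None of the 5 passed once the spread between the libraries was allowed for. That spread, a coefficient of variation of 33.3% beyond counting error over the 508 genes tested, was estimated with edgeR from the same libraries; over the 406 detected genes it was 31.6%. edgeR's exact test at a common dispersion gave an adjusted p of 1 for all 5 genes, with the smallest unadjusted p at 0.347 for Mir218-2. By that test 0.787% of the 508 genes differed. The dispersion was taken from the same difference between libraries that the test then judges, so few genes can pass. Not passing therefore does not show that the 5 genes had equal levels in the libraries. At an unadjusted p under 0.05 it called 25 of the 508 genes (4.92%) and none of the 5. The marker lists given above also differed in their summed levels. The sums for neurons, astrocytes, oligodendrocytes, and microglia and leukocytes were higher in library 1, and those for vessels and red blood cells were lower. The choroid plexus sum was nearly equal (718 and 722 CPM), with 2 genes higher in library 1 and 2 lower. Genes higher and lower in library 1 were 2 and 0 for astrocytes, 2 and 1 for oligodendrocytes, and 4 and 1 for microglia and leukocytes. They were 1 and 2 for vessels and 1 and 2 for red blood cells. The neuron sum was led by Mir132 (48515 CPM in library 1, against 30152 CPM in library 2), and its members were not all on 1 side: 7 of the 12 genes were higher in library 1 and 5 were lower. The part of these lists in the ratios of Mir342, Mir346 and Mir218-2 was not tested.

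**Figure D3:**
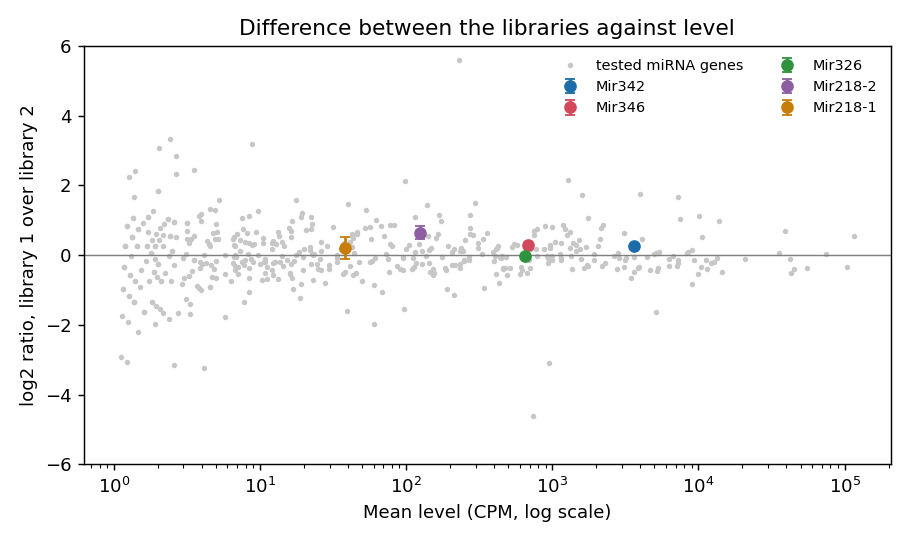
log2 ratio of library 1 over library 2 against mean level (CPM, log axis) for the tested miRNA genes (grey; 1 gene with 0 reads in one library is not drawn) and the 5 genes in colour with 95% exact intervals from counting error. Mir218-2 lies highest of the 5 at 0.64, Mir342 and Mir346 at 0.27 and 0.28, Mir218-1 at 0.21 and Mir326 at -0.03, all within the grey cloud.

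The genes with the most similar pair of values were taken as those nearest in log2(CPM + 1) over the 2 libraries, with the Euclidean distance as the measure. With 2 libraries this mainly matches level. Nearest to Mir342 were Mir378a (3566 CPM in library 1 and 3733 CPM in library 2; distance 0.240) and Mir26b (4753 and 3479 CPM; 0.280). Mir346 was nearest to Mir146 (776 and 640 CPM; 0.0603) and Mir212 (752 and 670 CPM; 0.111). Mir326 was nearest to Mir425 (670 and 637 CPM; 0.0739) and Mir1843a (615 and 679 CPM; 0.0828). Mir218-2 was nearest to Mir136 (153 and 104 CPM; 0.0967) and Mir193b (136 and 110 CPM; 0.237), and Mir218-1 to Mir6944 (40.5 and 36.2 CPM; 0.0356) and Mir25 (43.1 and 35.6 CPM; 0.0795).

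Seeds tie some of these genes to others in the genome. The seed of miR-326-3p, CUCUGGG, is also that of miR-330-5p (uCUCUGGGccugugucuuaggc, RefSeq GRCm38.p6), whose gene Mir330 is on chromosome 7 as well. Mir330 was far more abundant than Mir326, at 10706 CPM in library 1 and 11838 CPM in library 2 (mean 11272 ± 801, SD, n = 2), which is 16.5 and 17.9 times the level of Mir326. Counts are per gene and do not separate the arms, so how much of either count carries the common seed is not given by them. The seed of miR-218-5p recurs in miR-7002-3p, whose gene Mir7002 had 0 reads in library 1 and 2 in library 2. Seed-sharing partners of miR-346-3p (Mir7001) and miR-218-1-3p (Mir496b) had no read in either library, where a count of 0 allows up to 0.784 CPM in library 1 and 0.659 CPM in library 2. No other annotated mature miRNA had the seed of miR-342-5p, miR-342-3p, miR-326-5p, miR-346-5p or miR-218-2-3p.

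The 5 genes were set against 21 further miRNA genes in hosts of neuronal or receptor signalling. All 21 lay within the host listed for them, 17 were detected and 1, Mir1912 in the serotonin receptor gene Htr2c, had no read. The median level of the 5 genes was 9.36 on the log2(CPM + 1) scale, against 7.75 for the 21 genes and 4.93 for the 508 tested genes. The first 2 medians include every member of their list, whereas the third leaves out genes with too few reads. The leading genes of the list were Mir139 in the phosphodiesterase gene Pde2a (137427 CPM in library 1 and 93753 CPM in library 2), Mir744 in the kinase gene Map2k4 (40314 and 43618 CPM) and Mir151 in the focal adhesion kinase gene Ptk2 (11142 and 13085 CPM). In all, 5 of the 21 lay above Mir342 and 8 below Mir218-1 in mean CPM. Under the layout described above, these places and the medians leave out reads that match both Mir218 genes. The same holds for reads that match both Mir128-1 and Mir128-2, which are in the list. Of 19 listed genes with enough reads, the exact binomial test called 6 higher in library 1 and 6 higher in library 2, where it called 48.4% of all genes in either direction. None of the 19 passed edgeR's exact test.

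Among the examined hosts that encode receptors of neurotransmitters, Grid1 held the miRNA with the highest counted level, though only narrowly in library 2. The muscarinic receptor gene Chrm2 holds Mir490, with 394 CPM in library 1 and 584 CPM in library 2. The metabotropic glutamate receptor gene Grm8 holds Mir592, with 19.3 and 59.3 CPM. The most abundant of the 4 Htr2c miRNAs was Mir1298, with 78.9 and 104 CPM, and the GABA receptor gene Gabre holds Mir224, with 2.35 and 1.98 CPM, and Mir452, with 0 reads in library 1 and 1 in library 2. Mir346 in Grid1, at 755 CPM in library 1 and 620 CPM in library 2, lay above each of these in both libraries. In library 2 its gap to Mir490 (620 against 584 CPM) was smaller than the spread between the libraries, a coefficient of variation of 31.6%. The order of Mir346 and Mir490 is therefore not settled by the 2 libraries. Mir490, Mir592, Mir1298, Mir224 and Mir452 were picked for this description after their values were seen.

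**Figure D4:**
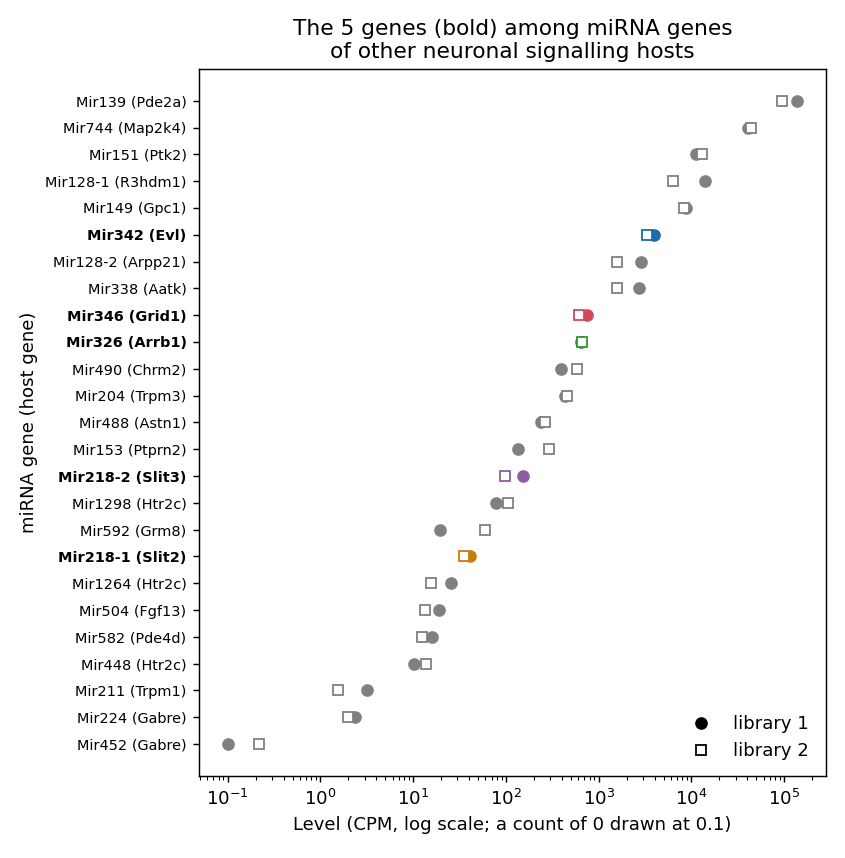
Levels (CPM, log axis) of the 5 miRNA genes (bold, coloured) and of 20 further miRNA genes in hosts of neuronal or receptor signalling (grey). Host genes are in brackets, and Mir1912 is left out at 0 reads. Filled circles are library 1 and open squares library 2. Above Mir342 lie 5 of the listed genes. Both Mir218 genes, counted without reads that match both, lie in the lower part.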

How the data were processed

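The authors deposited 1 table per library of whole-number read counts per miRNA gene, not normalized, on mm10 per the labels and with GENCODE M21 per the deposited description files. The aligner, its version and adapter trimming: not given in the sources used here. The layout of the deposited counts is that of STAR, in which multi-mapping reads go to a tally and to no gene. The hybrid mice carry CAST/EiJ alleles, and reads that differ from mm10 may have been lost.

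The sense-strand column was used and the 4 tally rows were left out: in libraries 1 and 2, 19.6% and 18.9% of all reads did not map, 41.7% and 41.1% were multi-mapping, and 5.03% and 4.94% lay outside miRNA genes. All 2202 identifiers matched GENCODE M21. Genes with 10 or more reads in total were tested. edgeR's quasi-likelihood test needs residual degrees of freedom, which 1 library against 1 lacks. For host positions, the principal protein-coding transcript that spans the hairpin was used.

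Python 3.11.15 (scipy 1.17.1, pandas 2.3.3, numpy 2.4.6), R 4.3.3 with edgeR 4.0.16 (TMM) and DESeq2 1.42.0 (size factors only), and RNAfold 2.7.2 at 37 °C were used. The binomial test and the estimate of the common dispersion were tested on simulated counts. The binomial test makes no allowance for spread beyond counting error, a coefficient of variation of 33.3% in these data. Its check by simulation therefore does not vouch for its calls between these libraries.

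The 5 genes, the marker and host lists and the tests were chosen with earlier results of these data known. Genes named beyond the 5 are the 3 highest of the host list, those that share a seed with one of the 5, and the 2 nearest to each in level, besides the exceptions stated. Alternatives were other columns, scalings, totals, filters, pseudocounts and a test that allows for spread, and leaving out each library. Not analysed here were separate arms, length variants and the alleles of the parents.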

Additional observations from a re-analysis of the deposited data

Results flagged for a closer look

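Groups of 2 libraries are too small for an outlier test, and with 1 group no contrast could differ between groups. Some data outside the counts used here exceeded what a count of 0 allows. That bar is so low that tallies of this size always pass it, so they are listed only as data not analysed. The multi-mapping tally was 41.7% of all reads in library 1, against 41.1% in library 2. Under the layout of the files whole reads of miR-218-5p belong to this tally, but it does not give their number. Reads that mapped once and lay outside every miRNA gene were 5.03% of library 1, against 4.94% of library 2. Summed over all miRNA genes, antisense reads numbered 277935 in library 1, against 335340 in library 2. None of them was at Mir342, Mir326, Mir346, Mir218-1 or Mir218-2.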

How the results depend on the processing

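Over 21 results and 102 alternatives, 90 kept their call or moved by less than the spread, and none turned round. For levels and the Mir218-1 share, each of the 2 libraries always lies within the SD of their mean. Leaving out a library could therefore not count as a move there, so the 90 overstate how stable the results are. Per 1000000 of all reads in place of sense-strand miRNA reads, the mean levels were 1240 for Mir342, 236 for Mir346, 225 for Mir326, 42.7 for Mir218-2 and 13.1 for Mir218-1, lower by construction and in the same order. In the column that ignores strand all 5 levels rose, because the total shrinks there while their counts do not. Mir342 stood at 3899 CPM there, Mir346 at 742 CPM and Mir326 at 706 CPM. Only Mir326, with an SD of 10.1 CPM, moved by more than its own SD. With all reads as the library total, Mir326 passed the binomial test (log2 ratio -0.0915, adjusted p = 0.0409, and 0.46 to 1 under the other alternatives). Under edgeR's exact test, with a dispersion from the same 2 libraries, Mir342 (log2 ratio 0.29), Mir346 (0.30) and Mir218-2 (0.66) were not called. It called 0 of the 5 genes and 4 of all 508, against 3 and 246 by the binomial test. The depth limits Mir218-1 most, with 317 reads over both libraries. With a library left out, levels were those of the other library, and no difference could be computed. No paired analysis was possible because the series has 1 group.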
